A study of Rattus norvegicus with 12 samples.

Results

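The transcripts described here belong to 56 genes of the mitotic spindle and of the passage from G2 into mitosis, chosen by name. They were taken from arrays of rat F111 fibroblasts, where each member was read from the probe sets that carry its symbol and no other. Of the 56 genes, 50 had such a probe set, 72 probe sets in all, out of 14217 genes and 31042 probe sets measured. The remaining 6, Cdc25c, Nek2, Ndc80, Kif4a, Tpx2 and Anln, were not analysed here, since no probe set named them alone.

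F111 is an established rat fibroblast cell line. The A16 group held F111 cells grown attached to plastic for 16 h, and it was the reference. The Colony group held F111 cells that were first kept in suspension for 16 h (called NA16) and then left to form colonies in soft agar for 7 days. Per the methods of the study, colonies were freed from the agar and let attach briefly to a dish before further use, and growth time, growth support and cell selection differ together between the groups. Both groups were grown in the same serum-containing medium, and the labels name no other agent. Each group had 3 arrays, 2 from separate cultures (biological replicates 1 and 2) and a second technical array, which carried no culture number and was averaged with biological replicate 1, so that n = 2 cultures per group. The Colony array of biological replicate 2 has 1 label that names tumour formation while its other labels name colonies, so it was also left out, and the genes that then no longer passed are named with their values.

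Cells preparing to divide build up a common set of transcripts late in the cell cycle. Cyclins A and B with Cdk1 drive entry into mitosis, Polo and Aurora kinases build the spindle, kinetochore and passenger proteins join chromosomes to microtubules, the checkpoint holds anaphase until all are attached, and the anaphase promoting complex then ends mitosis by destroying securin and the cyclins. In resting cells the DREAM complex holds these genes down through a promoter element named the cell cycle genes homology region (CHR), and B-Myb and FoxM1 with the MuvB core turn them on through the same element, often beside CCAAT boxes that NF-Y binds. In a fibroblast culture their RNA is commonly read as a sign of how many cells are dividing. In RNA from whole cultures, fewer cells in mitosis and less of a transcript per cell cannot be told apart.

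The promoters are shown because they hold letters that are more frequent among these genes than among all promoters and that the choice of members did not use. RefSeq promoters (GRCr8, 250 bases before the start) were listed for 47 of the 56 genes. The letters TTTGAA or TTCGAA, here called a CHR match, stood on either strand in 25 of the 47 (53.2%), against 17.3% of all 27457 promoters. CCAAT stood on either strand in 34 (72.3%), against 34.3% of all, and at least 2 CCAAT matches stood in 48.9% against 9.77%. Both kinds of match stood together in 22 members (46.8%) and in 6.22% of all promoters. A match is a run of letters and not a measured binding site. The 5 promoters below belong to Smc4, a called gene with both kinds of match, and to Birc5, Cdk1, Cenpa and Mki67, which were picked after their values were seen, to show lower, not passing and higher genes with the same letters. Each is written 5′ to 3′ in the direction of the gene, and capitals mark CHR and CCAAT matches (TTCAAA and ATTGG are the same letters read on the other strand). Smc4 lies at chr2:155550012-155550261, plus strand, Birc5 at chr10:103571896-103572145, plus strand, Cdk1 at chr20:19265043-19265292, plus strand, Cenpa at chr6:31431553-31431802, minus strand, and Mki67 at chr1:199952594-199952843, minus strand.
Smc4: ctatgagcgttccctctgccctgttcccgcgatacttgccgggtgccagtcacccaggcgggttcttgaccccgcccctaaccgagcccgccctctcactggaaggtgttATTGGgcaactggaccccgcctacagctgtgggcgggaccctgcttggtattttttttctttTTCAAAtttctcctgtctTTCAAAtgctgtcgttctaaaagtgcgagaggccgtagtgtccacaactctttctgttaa
Birc5: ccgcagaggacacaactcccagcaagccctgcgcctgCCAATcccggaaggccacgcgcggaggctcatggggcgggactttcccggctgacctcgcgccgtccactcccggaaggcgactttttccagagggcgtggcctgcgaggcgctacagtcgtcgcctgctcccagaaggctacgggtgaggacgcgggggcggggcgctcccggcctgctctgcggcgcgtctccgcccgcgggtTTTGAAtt
Cdk1: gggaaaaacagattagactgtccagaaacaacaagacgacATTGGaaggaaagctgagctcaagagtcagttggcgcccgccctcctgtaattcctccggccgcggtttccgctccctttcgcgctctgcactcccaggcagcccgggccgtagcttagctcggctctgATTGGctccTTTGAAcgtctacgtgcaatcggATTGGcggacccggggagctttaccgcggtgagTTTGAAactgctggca
Cenpa: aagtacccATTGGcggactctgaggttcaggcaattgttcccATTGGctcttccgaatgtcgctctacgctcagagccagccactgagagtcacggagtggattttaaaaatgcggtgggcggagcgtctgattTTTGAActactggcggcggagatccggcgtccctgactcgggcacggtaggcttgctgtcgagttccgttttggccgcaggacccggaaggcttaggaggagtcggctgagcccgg
Mki67: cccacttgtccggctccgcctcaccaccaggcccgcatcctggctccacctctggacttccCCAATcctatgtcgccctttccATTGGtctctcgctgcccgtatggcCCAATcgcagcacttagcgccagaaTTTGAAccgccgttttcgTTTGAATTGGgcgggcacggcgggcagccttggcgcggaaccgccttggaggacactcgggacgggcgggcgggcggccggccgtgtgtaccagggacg

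The nearest CHR match began 60 bases before the start in Smc4, 8 in Birc5, 16 in Cdk1, 116 in Cenpa and 99 in Mki67. In Mki67 one CHR match and one CCAAT match overlap. As the values below show, Smc4 and Birc5 were lower in Colony, Cenpa and Mki67 were higher, and Cdk1 did not pass. This mix was set by how the printed promoters were picked and is no result about the letters. Of the measured members with a promoter, a CHR match stood in 5 of the 6 that were lower, 2 of the 4 that were higher and 16 of the 32 that passed in neither direction (adjusted p alone, defined below).

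Colony cells and A16 cells held most mitotic transcripts at levels that differed by less than 2-fold. A gene was called when the adjusted p of limma was under 0.05 and its fold change (FC) was over 2, each gene by its brightest probe set. With this rule 0 of 50 members were higher in Colony, against 4.36% of all genes, and 2 of 50 were lower, against 4.75% of all genes. Both were genes of mitotic chromosome structure, Cdca2 and Smc4. Only these 2 members differed by more than 2-fold, so an unadjusted p under 0.05 could add none, and the counts stayed 0 and 2. With the adjusted p alone and no fold threshold, a rule added after the values were seen, 4 members were higher (12.9% of all genes were) and 9 were lower (10.8% of all genes were), while 37 passed in neither direction. The median log2 FC over the 50 members was -0.11, against 0.05 over all genes. The median size of the log2 FC, sign set aside, was 0.313 for the members and 0.239 for all genes. By mean level among all probe sets, the median percentile was 93.1 for the members and 66.1 for all genes. The shares of all genes were thus not matched for level. The 95% interval of the log2 FC lay wholly within a 2-fold change for 41 of the 50 members (82%) and for 80.1% of all genes.

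**Figure D1:**
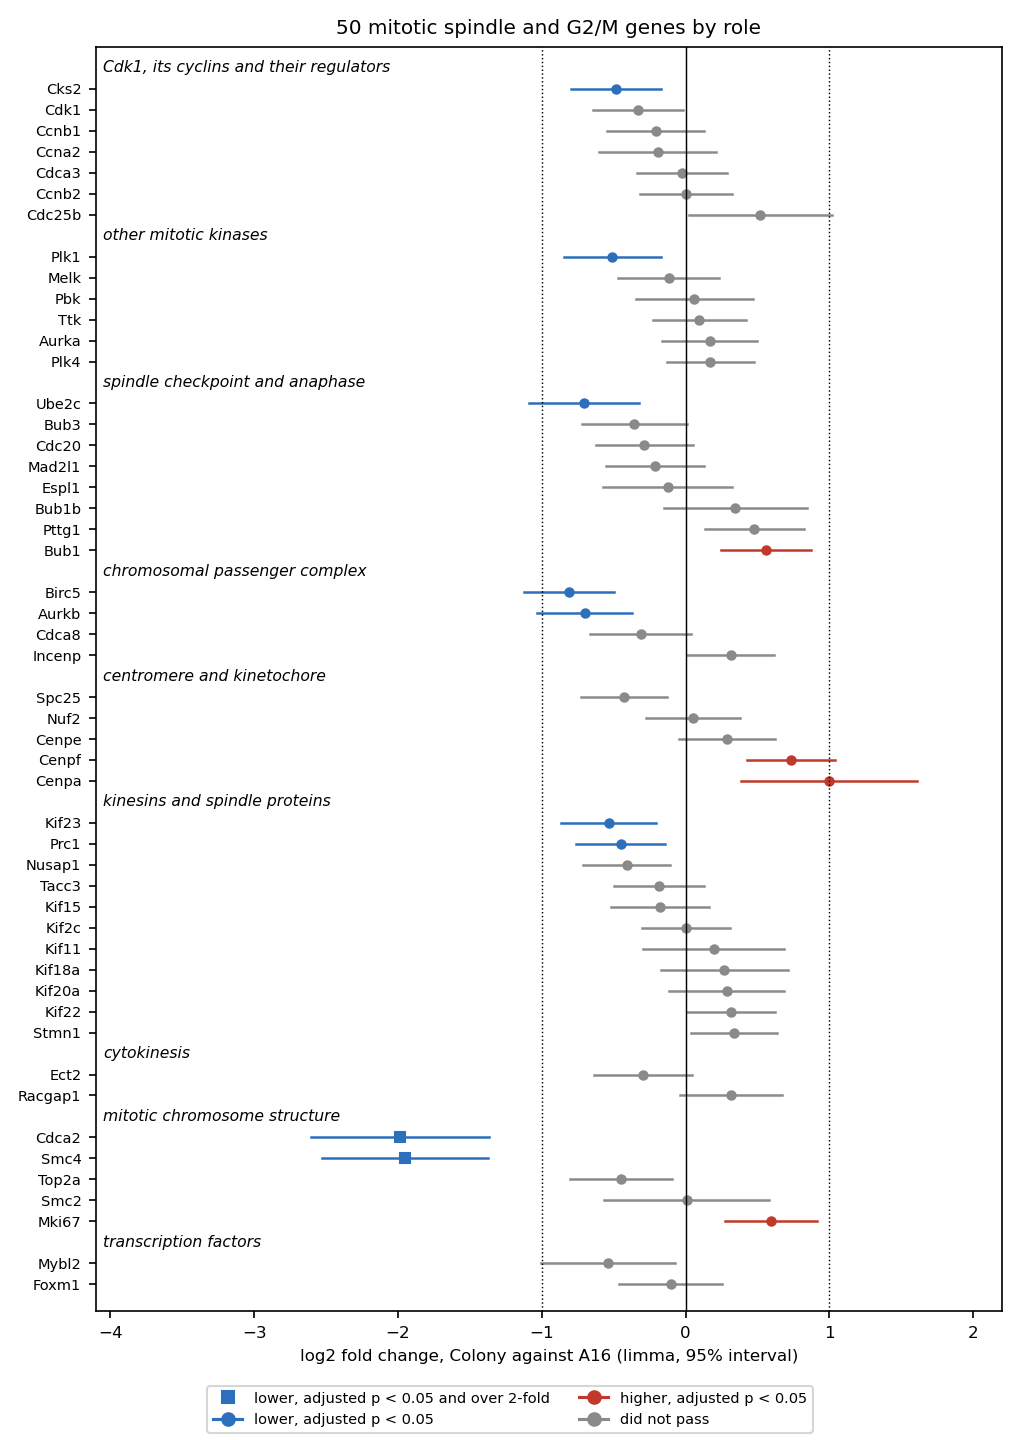
Log2 fold change of Colony against A16 for the 50 measured genes, grouped by role, with 95% limma intervals from 2 cultures per group; dotted lines mark a 2-fold change. Only Cdca2 and Smc4 lie beyond a 2-fold fall, and genes on both sides of 0 occur in each role with more than 2 genes.

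The direction was read in each culture as well. Against the mean of the 2 A16 cultures, the median of members was -0.056 (log2) in Colony culture 1 and -0.064 in culture 2. The medians of all genes were 0.047 and 0.056. The sign was the same in both cultures for 43 of the 50 members and for 11220 of all 14217 genes. By array, the reference was the mean of the 3 A16 arrays instead. The median of the members then lay at 0.02, 0.04 and -0.06 in A16 (biological replicate 1, then the technical array, then biological replicate 2). In Colony, in the same order, it lay at -0.19, -0.08 and -0.06. The median of all genes lay at 0.010, 0.028 and -0.045 in A16 and at 0.035, 0.030 and 0.042 in Colony. Without correction for these, the member median shifted between groups by about the size of the differences among arrays of 1 group. The spread of single genes was wider than that shift. On each Colony array the member median lay below that of all genes, while in A16 it lay on both sides. Whether the shift exceeds array differences was not tested. The 2 cultures of a group differed by a median of 0.151 in A16 and 0.156 in Colony, sign set aside, on the log2 scale. Of the 50 genes, 18 were higher in the second A16 culture than in the first, and 33 were higher in the second Colony culture than in the first. Of all 14217 genes, 5144 were higher in the second A16 culture and 7200 in the second Colony culture. Without overlap between 3 Colony and 3 A16 arrays, 11 members were higher (26.7% of all genes were) and 21 were lower (20.9% of all genes were), and 18 overlapped.

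Each culture was also left out in turn, which leaves the spread to the other group alone. The 2 called genes were called each time. By the adjusted p alone, Birc5, Cdca2, Cenpf and Smc4 passed all 4 times, Aurkb 3 times, Cenpa and Ube2c 2 times, Kif23, Mki67 and Plk1 1 time, and Bub1, Cks2 and Prc1 0 times of 4. Without Colony replicate 2, whose labels disagree, 4 members were lower (Aurkb, Birc5, Cdca2 and Smc4) and 1 was higher (Cenpf) by the adjusted p alone. The other 8 kept their sign but did not pass without that array. On the lower side the log2 FC was then -0.53 for Ube2c (adjusted p 0.0891), -0.43 for Kif23 (0.152), -0.41 for Cks2 (0.171), -0.41 for Prc1 (0.178) and -0.39 for Plk1 (0.186). On the higher side it was 0.65 for Mki67 (0.0536), 0.64 for Cenpa (0.103) and 0.49 for Bub1 (0.106). The median log2 FC of the members was -0.056 without Colony replicate 2, -0.064 without Colony replicate 1, -0.105 without A16 replicate 2 and -0.0098 without A16 replicate 1.

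The cultures were checked with marker lists. On the log2 scale, RMA values of 2 arrays differed with an SD of 0.174 to 0.331 within a group and 0.673 to 0.762 between groups, and array medians ran from 97.6 to 100.9. Of 13 fibroblast markers, 5 fell over 2-fold in Colony (Col1a1, Col3a1, Col5a1, Thy1 and Fn1), and their summed intensity was 86549 to 98505 in A16 and 59059 to 64047 in Colony, while Vim did not pass (log2 FC 0.16). By the adjusted p alone 7 of the 13 were lower and 1 was higher, Pdgfra (log2 FC 0.55, adjusted p 0.0232), and 3 of the 13 lay higher in Colony with no overlap. Of 11 measured leukocyte markers, Csf1r rose (log2 FC 4.01), the sums were 1363 to 1557 in A16 and 1779 to 1869 in Colony, and Ptprc read 35 to 42 on all arrays, below the median probe set. By the adjusted p alone 1 of the 11 was higher and 1 was lower, and with no overlap 3 lay higher and 1 lower. None of 7 endothelial markers was called by limma (1 had an unadjusted p under 0.05, sums 311 to 374 and 349 to 393). With no overlap 2 of these 7 lay higher and 1 lower. Of 7 epithelial markers, Krt8 rose (log2 FC 2.13), the sums were 935 to 1042 in A16 and 3186 to 3937 in Colony, and Epcam read 22 to 26 on all arrays. By the adjusted p alone 2 of the 7 epithelial markers were higher and none was lower, and with no overlap 2 lay higher and none lower. Over all genes, 4.36% were called higher and 4.75% lower. By the adjusted p alone 12.9% of all genes were higher and 10.8% lower, and with no overlap 26.7% lay higher and 20.9% lower. The part of the marker shifts in the mitotic values was not tested.

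Values below are linear RMA intensities, the scale of the deposited summary, given in the order biological replicate 1, technical replicate 2, biological replicate 2, and adjusted p-values are those of limma. They compare 1 probe set between groups, never 1 gene with another. Cdca2 encodes Repo-Man, which brings a phosphatase to chromatin as mitosis ends. It read 1227, 1077 and 1291 in A16 and 207, 260 and 409 in Colony. Every Colony array lay below every A16 array, and Colony biological replicate 2 was the highest of its group. Cdca2 fell 3.95-fold (log2 FC -1.98, SE 0.26, adjusted p 0.0025). Smc4, the core ATPase subunit that condensins I and II share, read 1484, 948 and 1664 in A16 and 273, 322 and 445 in Colony. Again the groups did not overlap and Colony biological replicate 2 was the least reduced. Smc4 fell 3.87-fold (log2 FC -1.95, SE 0.24, adjusted p 0.0020). Smc2, the partner of Smc4 in the same ring, did not pass (log2 FC 0.01, 95% interval -0.56 to 0.58), and its 2 Colony cultures lay on either side of the A16 mean, at -0.37 and 0.38.

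The other genes of chromosome structure went both ways. Top2a, the topoisomerase that untangles sister chromatids, read 2665, 2966 and 3395 in A16 and 2220, 2120 and 2364 in Colony. These arrays did not overlap, but Top2a missed the threshold (log2 FC -0.45, SE 0.15, adjusted p 0.0777). Mki67, the coat protein of mitotic chromosomes whose antigen is the standard stain for dividing cells, read 2206, 2161 and 1959 in A16 and 3047, 3443 and 3008 in Colony. All 3 Colony arrays stood above all A16 arrays, and Mki67 was 1.51-fold higher (log2 FC 0.59, SE 0.14, adjusted p 0.0212). Top2a and Mki67, both commonly used as marks of dividing cells, therefore lay on opposite sides of 0 in the same RNA.

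**Figure D2:**
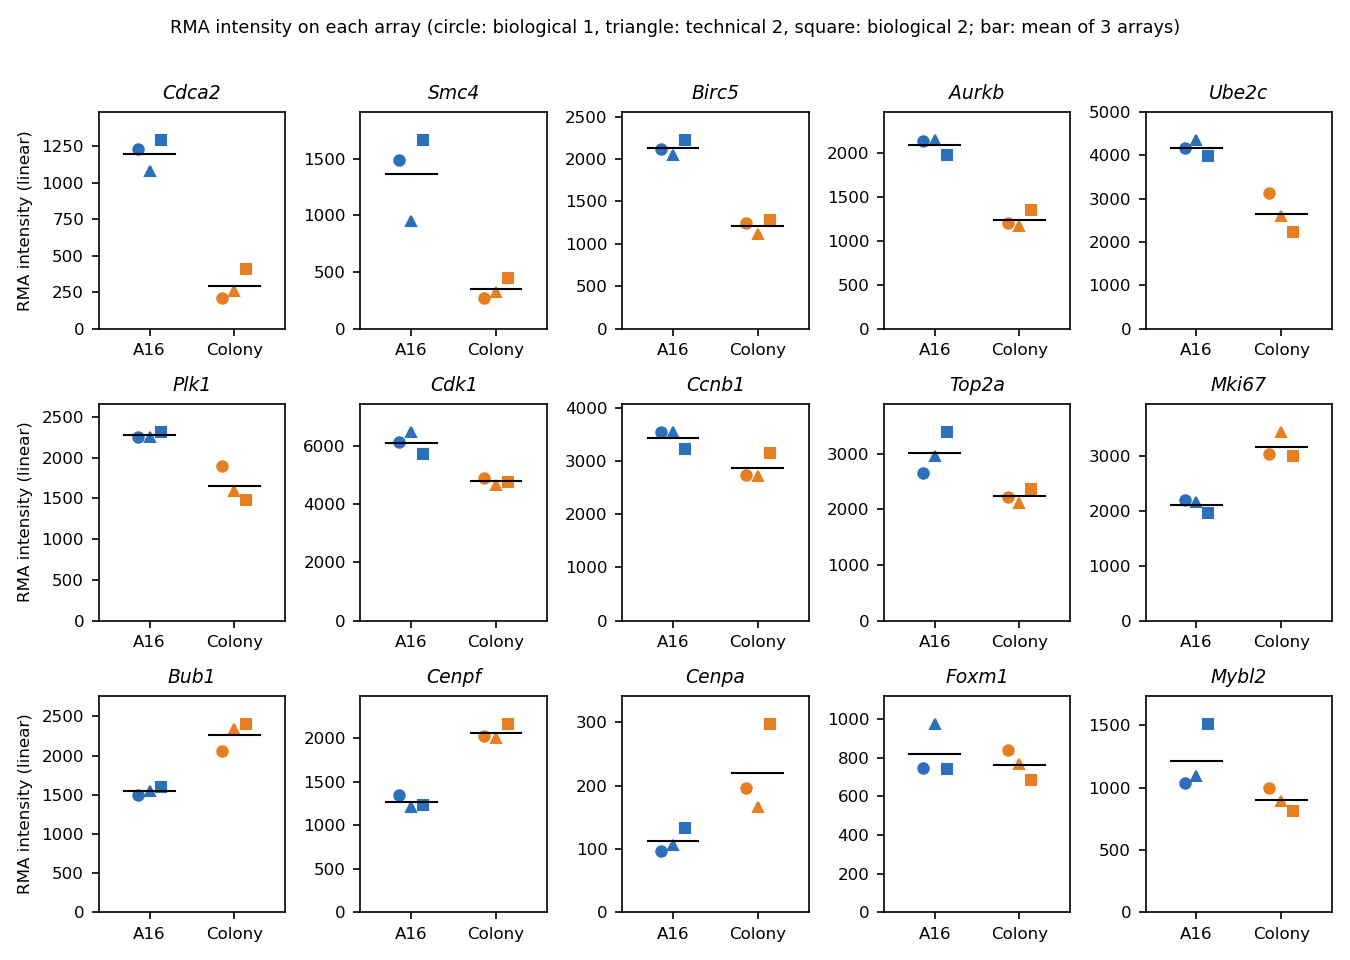
Linear RMA intensity of 15 genes on each of the 6 arrays (circle biological replicate 1, triangle technical replicate 2, square biological replicate 2; bar, mean of the 3 arrays), each panel with its own axis from 0. Cdca2 and Smc4 show the wide gap between groups, Mki67, Bub1, Cenpf and Cenpa are higher in Colony, and Foxm1 overlaps.

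Among Cdk1, its cyclins and their regulators, 1 of 7 passed the adjusted p, and it was lower. Cdk1, the kinase that drives mitotic entry, read 6132, 6467 and 5696 in A16 and 4878, 4665 and 4765 in Colony. The groups did not overlap, but the difference of 1.26-fold did not pass (log2 FC -0.33, 95% interval -0.64 to -0.02, adjusted p 0.130). Ccnb1, cyclin B1, read 3555, 3547 and 3238 in A16 and 2736, 2721 and 3156 in Colony, with a gap between groups that was narrower than the spread within Colony (log2 FC -0.21, adjusted p 0.369). A second Ccnb1 probe set had the opposite sign (log2 FC 0.24, adjusted p 0.304), so Ccnb1 has no settled direction here. Cks2, a small subunit that binds Cdk1, read 6096, 6554 and 6468 in A16 and 4697, 4960 and 4332 in Colony. It was 1.40-fold lower with no overlap (log2 FC -0.48, SE 0.13, adjusted p 0.0410). The cyclins Ccna2 (log2 FC -0.19) and Ccnb2 (0.00) did not pass, nor did Cdca3 (-0.02) or Cdc25b, the phosphatase that activates Cdk1 (0.52, adjusted p 0.132). Cdc25b was also the gene of this group that differed most within A16, with 735, 935 and 1244 on its 3 arrays.

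Of the 6 other mitotic kinases 1 passed. Plk1, the Polo kinase of spindle assembly and mitotic exit, read 2254, 2253 and 2315 in A16 and 1899, 1596 and 1476 in Colony. It was 1.42-fold lower with no overlap (log2 FC -0.51, SE 0.14, adjusted p 0.0426). The log2 FC was -0.12 for Melk, 0.06 for Pbk, 0.10 for the checkpoint kinase Ttk, 0.17 for the spindle pole kinase Aurka and 0.17 for the centriole kinase Plk4. None of these 5 passed, and on the brightest probe set of each the 95% interval lay within a 2-fold change. A second, less bright Ttk probe set had the opposite sign and a wider interval (log2 FC -0.41, 95% interval -1.01 to 0.19, adjusted p 0.319).

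Of 8 genes of the spindle checkpoint and of anaphase, 1 rose and 1 fell. Bub1, the kinase that recruits checkpoint proteins to kinetochores, read 1502, 1551 and 1597 in A16 and 2064, 2334 and 2404 in Colony. The groups stood apart, and Bub1 was 1.47-fold higher (log2 FC 0.56, SE 0.13, adjusted p 0.0239). Ube2c, the enzyme that starts ubiquitin chains for the anaphase promoting complex, read 4167, 4351 and 3982 in A16 and 3132, 2600 and 2226 in Colony. All Colony arrays were lower, by 1.63-fold on average (log2 FC -0.71, SE 0.16, adjusted p 0.0209). Cdc20, which activates that complex, read 1180, 1159 and 1001 in A16 and 915, 804 and 915 in Colony, a gap that did not pass (log2 FC -0.29, adjusted p 0.210). Its 4 other probe sets lay between 0.01 and 0.13. All were less bright, at percentiles 84.1, 53.7, 46.3 and 40.5 of all probe sets by mean level. Pttg1, the securin that the complex destroys, just missed on the higher side (log2 FC 0.48, adjusted p 0.0575). The checkpoint proteins Bub1b (0.35), Bub3 (-0.36) and Mad2l1 (-0.21) and the separase Espl1 (-0.12) did not pass.

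The chromosomal passenger complex corrects wrong attachments and then directs cytokinesis. Both its kinase Aurkb and its subunit Birc5 (survivin) were lower in Colony. Birc5 read 2120, 2051 and 2223 in A16 and 1246, 1111 and 1276 in Colony. The arrays within a group lay close together and far from the other group, and Birc5 was 1.76-fold lower (log2 FC -0.81, SE 0.13, adjusted p 0.0057). Aurkb read 2143, 2153 and 1985 in A16 and 1207, 1174 and 1355 in Colony. Its groups were as clearly apart, with a 1.63-fold difference (log2 FC -0.70, SE 0.14, adjusted p 0.0124). Cdca8 (borealin) had the same sign without passing (log2 FC -0.31, adjusted p 0.193). The scaffold Incenp had the opposite sign on its brightest probe set (log2 FC 0.31, adjusted p 0.135).

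At the centromere and kinetochore, 2 of 5 genes were higher and none was lower by the adjusted p of limma. Cenpf, a large kinetochore protein of G2 and mitosis, read 1345, 1215 and 1239 in A16 and 2023, 2007 and 2167 in Colony. The groups were far apart, and Cenpf was 1.66-fold higher (log2 FC 0.73, SE 0.13, adjusted p 0.0080). Cenpa, the histone variant that marks centromeres, read 96.9, 106 and 133 in A16 and 197, 167 and 298 in Colony. The Colony arrays were all higher, and biological replicate 2 was the highest by a wide margin. Cenpa was 1.99-fold higher (log2 FC 1.00, SE 0.26, adjusted p 0.0326), just under the 2-fold threshold. Its log2 FC was 0.64 (adjusted p 0.103) without Colony replicate 2 and 0.80 (adjusted p 0.0702) without A16 replicate 1, where it did not pass, and 1.36 without Colony replicate 1 and 1.19 without A16 replicate 2, where it was called. Of the remaining genes, Spc25 (-0.43, adjusted p 0.0517) and Nuf2 (0.05) belong to 1 microtubule-binding complex and Cenpe (0.29) is a kinetochore motor, and none of the 3 passed.

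Of 11 kinesins and spindle proteins, 2 were lower by the adjusted p and none was higher. Kif23, the motor of the spindle midzone, read 2259, 2400 and 2466 in A16 and 1783, 1771 and 1540 in Colony on its brightest probe set. These arrays did not overlap, and Kif23 was 1.45-fold lower (log2 FC -0.53, SE 0.14, adjusted p 0.0341). Prc1, which bundles the midzone microtubules, read 3046, 3041 and 3282 in A16 and 2463, 2302 and 2240 in Colony. It was 1.37-fold lower with no overlap and an adjusted p at the edge of the threshold (log2 FC -0.45, SE 0.13, adjusted p 0.0495). Below 0 and not passing were Nusap1 (-0.41, adjusted p 0.0624), Tacc3 (-0.18) and Kif15 (-0.18). The chromosome and spindle motors Kif2c (0.00), Kif11 (0.20), Kif18a (0.27), Kif20a (0.28) and Kif22 (0.32) and the microtubule destabiliser Stmn1 (0.34, adjusted p 0.111) lay at or above 0 and did not pass. The regulators of cytokinesis, which work together through RhoA, lay on opposite sides without passing, Ect2 at -0.30 (adjusted p 0.203) and the brightest Racgap1 probe set at 0.31 (adjusted p 0.196). The second Racgap1 probe set had the opposite sign, with all Colony arrays below all A16 arrays (log2 FC -0.33, adjusted p 0.220), so Racgap1 has no settled direction either.

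The transcription factors of this set, which drive the other genes through MuvB and the CHR, did not pass. Foxm1 read 744, 974 and 742 in A16 and 839, 768 and 682 in Colony, with partial overlap (log2 FC -0.10, 95% interval -0.46 to 0.26). Mybl2 (B-Myb) read 1038, 1097 and 1511 in A16 and 995, 893 and 811 in Colony. The Mybl2 arrays did not overlap, yet the second A16 culture stood well above the first, and the difference did not pass (log2 FC -0.54, SE 0.19, adjusted p 0.0987).

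Because the called genes each have more than 1 probe set, all probe sets were compared. Of the 17 members with several, the log2 FC of the probe sets ranged over more than 1 in 4 and over at most 0.5 in 9, with a median range of 0.448, and no gene passed the adjusted p in both directions. The 4 were Cdca2, Smc4, Kif23 and Incenp. Counted by probe set, 0 of 72 were called higher (4.0% of all probe sets were) and 3 lower (5.81%), and by the adjusted p alone 4 were higher (11.4%) and 13 lower (11.3%). The second Cdca2 probe set read 481, 522 and 580 in A16 and 514, 557 and 530 in Colony, with overlap (log2 FC -0.02, 95% interval -0.35 to 0.31). The second Smc4 probe set read 109, 97.2 and 116 in A16 and 89.2, 114 and 119 in Colony, also with overlap (log2 FC 0.00, 95% interval -0.35 to 0.36). Each of the called falls thus rested on 1 of 2 probe sets. By mean level the second Smc4 probe set was dim, at percentile 51.1 of all probe sets, and the second Cdca2 one lay at 77.2. Whether so dim a probe set could show a fall was not tested. In Kif23 the order was turned round. Its second probe set read 631, 565 and 702 in A16 and 97.4, 101 and 174 in Colony, and fell 4.92-fold with no overlap (log2 FC -2.30, SE 0.26, adjusted p 0.0014). Both Kif23 probe sets were thus lower, by very different amounts. On the called probe sets of Cdca2, Smc4 and Kif23 alike, Colony biological replicate 2 was the highest Colony array.

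Averaging all probe sets of a gene changed which genes were called. On that average Kif23 was called lower (log2 FC -1.42), Cdca2 stayed called (log2 FC -1.0002) and Smc4 fell short of the 2-fold threshold (log2 FC -0.97). The third Incenp probe set was lower (257, 211 and 378 in A16, 128, 142 and 180 in Colony, log2 FC -0.93, adjusted p 0.0406), and the second read 420 on 1 A16 array, biological replicate 2, and 195 to 222 on the other 5 (log2 FC -0.53, adjusted p 0.284), so Incenp has no settled direction. A second probe set also passed where the brightest did not in Kif2c (log2 FC -0.63, adjusted p 0.0169) and Nusap1 (log2 FC -0.75, adjusted p 0.0072). Probe sets of opposite sign, none of which passed, also occurred in Racgap1, Ccnb1, Cdc20, Ttk, Bub3, Kif11, Foxm1 and Mybl2. Where the probes lie in these transcripts was not used here.

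**Figure D3:**
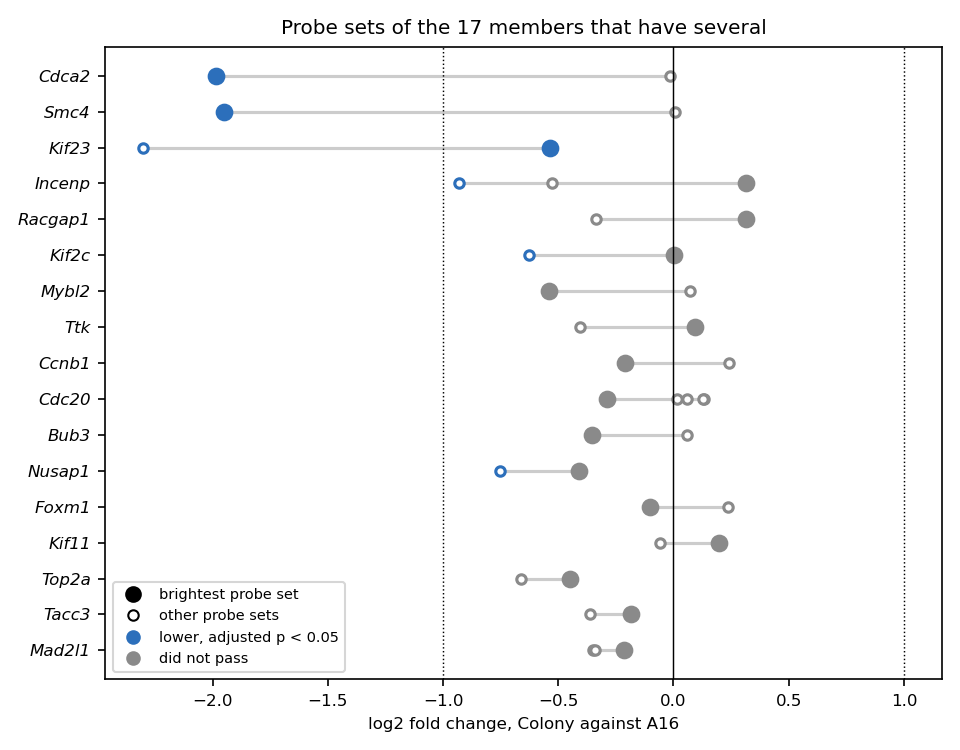
Log2 fold change of every probe set of the 17 genes with several (large filled circles, brightest probe set; small open circles, the others); blue, lower at an adjusted p under 0.05; dotted lines mark a 2-fold change. For Cdca2 and Smc4 the second probe set lies at 0, and for Kif23 the less bright one lies at -2.30.

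Neighbouring cell cycle lists were read in the same way. Of 55 other mitotic genes, 0 were called higher and 2 lower by limma (4.36% and 4.75% of all genes were), with 3 and 7 by the adjusted p alone (12.9% and 10.8% of all genes) and a median log2 FC of -0.127. Fam83d, which brings a kinase to the spindle, read 782, 792 and 875 in A16 and 493, 422 and 346 in Colony (log2 FC -1.06, adjusted p 0.0057). Cenpt, a DNA-binding kinetochore protein, read 728, 808 and 949 in A16 and 449, 437 and 387 in Colony (log2 FC -1.04, adjusted p 0.0046). Neither overlapped between groups. Of 42 genes of DNA replication and S phase, 1 was called, Tk1, the thymidine kinase of the nucleotide salvage pathway (log2 FC -1.0008, adjusted p 0.0035), and the median was -0.107. Tk1 read 3012, 2637 and 3235 in A16 and 1611, 1571 and 1431 in Colony, with no overlap. By the adjusted p alone 2 of the 42 were higher and 7 were lower. Of 14 subunits and partners of the anaphase promoting complex, 1 was called, Ube2s, which extends the chains that Ube2c begins (log2 FC -1.0004, adjusted p 0.0023), and the median was -0.122. Ube2s read 8342, 8735 and 8849 in A16 and 4422, 4587 and 4191 in Colony, again with no overlap. By the adjusted p alone none of the 14 was higher and 2 were lower. Of 10 DREAM and MuvB subunits, 0 were called in either direction by limma, with 2 higher and 1 lower by the adjusted p alone and a median of 0.083. Fam83d, Cenpt, Tk1 and Ube2s lay close to the 2-fold threshold, and none of these 4 was called by limma without A16 replicate 2 or without Colony replicate 2.

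In the list of G1 cyclins, Cdk inhibitors and the Rb family, 2 of 18 genes were called higher (4.36% of all genes were) and 5 lower (4.75% of all genes were), and the median log2 FC was -0.591. By the adjusted p alone 3 of the 18 were higher (12.9% of all genes were) and 10 were lower (10.8% of all genes were). Ccnd2, cyclin D2, read 2006, 1765 and 1288 in A16 and 76.9, 65.2 and 62.0 in Colony (log2 FC -4.55, adjusted p 3.2e-05). Ccnd1, cyclin D1, went the other way, from 2450, 2837 and 2539 to 7205, 6743 and 7293 (log2 FC 1.46, adjusted p 0.00048). Neither cyclin overlapped between groups. The pocket protein Rb1 read 197, 229 and 199 in A16 and 557, 650 and 722 in Colony and was also higher (log2 FC 1.68, adjusted p 0.00048). The G1 to S kinase Cdk2 read 1510, 1525 and 2142 in A16 and 863, 817 and 513 in Colony and was lower (log2 FC -1.46, adjusted p 0.0093). Neither overlapped between groups. Ccnd3 (-1.39), the Cdk inhibitor Cdkn1a (-1.37) and the phosphatase Cdc25a (-1.18) were also called lower. Rbl1 and Rbl2 stand in both this list and the DREAM list, and Fzr1 in both the anaphase promoting complex list and the other mitotic list. Whether the lists differ from each other was not tested.

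**Figure D4:**
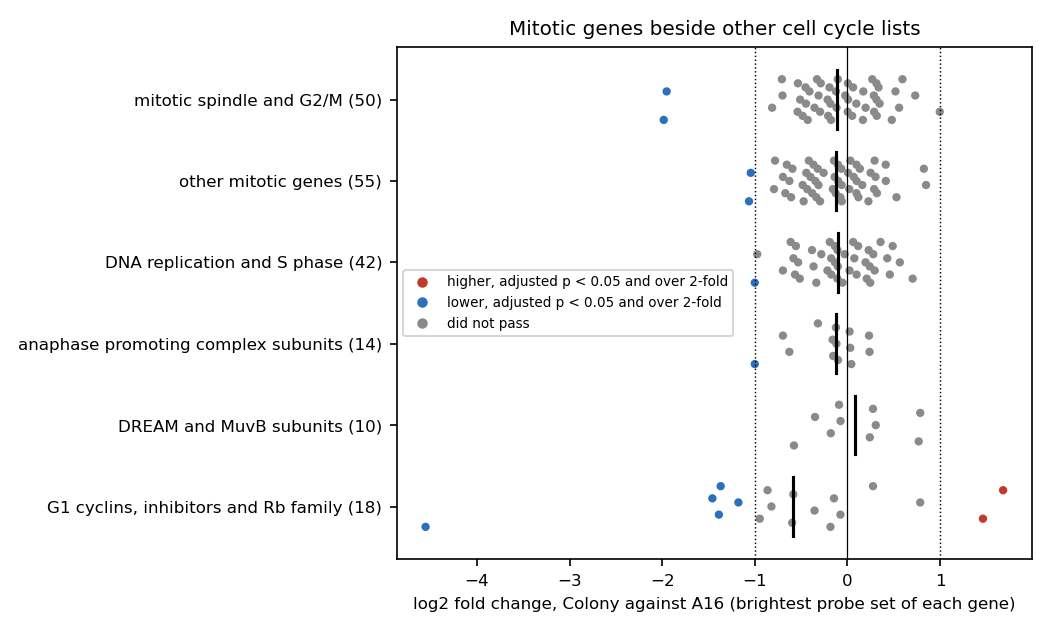
Log2 fold change of Colony against A16 for the genes of 6 cell cycle lists (1 point per gene, brightest probe set; number of genes in brackets; black bar, median of the list; dotted lines, 2-fold). The mitotic and replication lists lie mostly within a 2-fold change, with medians from -0.127 to 0.083 including the DREAM list, while Ccnd2 of the G1 list lies at -4.55.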

How the data were processed

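Total RNA of A16 and Colony cells was labelled by the authors and hybridised to 6 Affymetrix rat arrays. The authors summarised each probe set by RMA and by PLIER and deposited both as linear intensity; the software versions were not given in the sources used here. Values of RMA ran from 11.6 to 25775.

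All 31042 probe sets other than the 57 controls were tested. Log2 of the RMA intensity was fitted with limma 3.58.1 (lmFit, then eBayes, whose prior had 4.76 degrees of freedom) under R 4.3.3, Colony against A16, with p-values adjusted by Benjamini-Hochberg over all probe sets and no filter on dim values. The technical array was averaged with biological replicate 1, which was an assumption. The spread rests on 2 cultures per group, which limits the precision. Detection calls were not used here.

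A single gene symbol was listed for 20826 probe sets, several for 436 and none for 9780, and only the first kind named genes. Symbols were updated with the RefSeq table of GRCr8. Each gene was read from its brightest probe set, by mean log2 RMA over the 6 arrays. The fit was tested on simulated data, figures were drawn with matplotlib 3.10.9, and alternatives are given at the end.

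The members, their roles, the gene lists and the tests were chosen with earlier results of these data known. All members are named, with array values for each called gene, for Mki67, Top2a, Ccnb1, Cdk1, Plk1, Aurkb, Birc5, Cdc20, Foxm1 and Mybl2, and for up to 4 called genes of each other list. Array values of Cks2, Bub1, Ube2c, Cenpf, Cenpa, Kif23, Prc1 and some of Cdc25b and Incenp were added after the values were seen, as were all but 1 of the printed promoters.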

Additional observations from a re-analysis of the deposited data

How the results depend on the processing

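The count of 2 lower members was the same under PLIER, other handling of the technical arrays, centring, a second quantile normalization, the culture or replicate block and each culture left out. It was 0 when the methods' t-test was adjusted by Benjamini-Hochberg, and 3 when any probe set of a gene could be called. The count of higher members was 1, Cenpa, instead of 0 under PLIER, without the technical arrays, after centring and after quantile normalization, and ranged from 0 to 1 with a culture left out. The median log2 FC of the members ran from -0.125 to -0.0098 over 16 settings, and from -0.105 to -0.0098 with a culture left out. The sign of the log2 FC was kept by 34 of 50 members in 15 settings and changed in 16.

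With the adjusted p alone, counts depended on the setting. They were 4 to 6 lower and 1 to 3 higher with a culture left out, 4 to 17 lower and 2 to 9 higher in other limma settings, and 0 and 0 by the adjusted t-test (10 lower and 7 higher at an unadjusted p). Birc5, Cdca2, Cenpf and Smc4 passed in 15 of 15 limma settings, Aurkb in 14, Cenpa in 13, Ube2c in 12, Mki67 in 11, Bub1 in 10, Kif23 in 9, Plk1 in 7, and Cks2 and Prc1 in 6. Same-numbered cultures did not deviate together (correlation -0.148), so the numbers were not read as pairs; with the replicate block 2 were lower and 0 higher at over 2-fold, and 5 lower and 4 higher by the adjusted p alone. A crossed pairing, added after seeing the data, gave 2 and 0, and 10 and 5. Genes called lower ranged over all settings from 0 to 3 in the other mitotic list, 0 to 2 in the replication list, 0 to 2 in the anaphase promoting complex list and 0 to 6 in the G1 list.

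With 2 cultures per group, a log2 FC of about 0.5 sat near the threshold, and a member that did not pass is not shown to be equal in the 2 groups.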
